A study of Mus musculus with 13 samples.

Results

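The response of control macrophages to interleukin-4 (IL-4) was taken from 7 of the 13 arrays in the series, namely the 3 arrays titled Control_IL4 against the 4 titled Control_No_treatment. All 20546 genes measured above background were compared. The cells were bone marrow-derived macrophages of C57BL/6 mice aged 12 to 16 weeks, whose marrow had been cultured in medium with 30% L929-conditioned medium, a source of macrophage colony-stimulating factor, and replated on day 6. All 7 arrays came from mice in which exons 4 to 7 of Hdac3 were floxed and that carried no Cre. The vehicle cells received 0.1% BSA, and the treated cells received 10 ng/mL IL-4, each for 24 h. The other 6 arrays held HDAC3 KO cells, in which LysM Cre, driven by a myeloid promoter, deletes the floxed exons. Vehicle arrays are called 1 to 4 and IL-4 arrays 9, 10 and 12 after their titles. No label states whether arrays of a group stem from different mice or different dishes. The p-values therefore set a difference only against the scatter within groups of the 13 arrays, which may be technical scatter. Every group lay at a single array position of its own on the slides, and the effects of position and group cannot be told apart.

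IL-4 is a type 2 cytokine made by T helper cells, basophils and other cells of allergic and helminth immunity. In macrophages it binds the IL-4 receptor alpha chain (Il4ra) paired with the common gamma chain (Il2rg) or with Il13ra1, which activates Janus kinases and the transcription factor STAT6. STAT6 dimers bind a palindrome with the arms TTC and GAA, and the resulting alternative activation is known for arginase, chitinase-like and resistin-like proteins, lectin receptors and multinucleated cell formation.

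Upstream sequences are printed for 5 genes that rose and that hold this palindrome, with any 4 bases between its arms, in the 250 bases before their start, from RefSeq promoters on GRCm38.p6. They are the secreted protein Retnla (chr16:48842359-48842608, plus strand), the integrin Itgax (chr7:128129300-128129549, plus), the heme-binding protein gene Hebp2 (chr10:18546077-18546326, minus), the beta-glucan receptor Clec7a (chr6:129472780-129473029, minus) and the PD-1 ligand Pdcd1lg2 (chr19:29410669-29410918, plus). Capitals mark the palindrome, and the last base printed is the one before the start.
Retnla: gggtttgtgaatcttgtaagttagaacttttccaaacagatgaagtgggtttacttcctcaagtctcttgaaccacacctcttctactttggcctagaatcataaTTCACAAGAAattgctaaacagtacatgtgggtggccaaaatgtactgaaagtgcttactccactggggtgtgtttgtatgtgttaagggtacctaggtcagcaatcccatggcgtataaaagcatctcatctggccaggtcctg
Itgax: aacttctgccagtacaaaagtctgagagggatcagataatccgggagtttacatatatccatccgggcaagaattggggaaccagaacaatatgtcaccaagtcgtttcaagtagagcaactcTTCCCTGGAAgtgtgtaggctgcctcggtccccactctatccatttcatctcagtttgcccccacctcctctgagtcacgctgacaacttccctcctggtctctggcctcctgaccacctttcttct
Hebp2: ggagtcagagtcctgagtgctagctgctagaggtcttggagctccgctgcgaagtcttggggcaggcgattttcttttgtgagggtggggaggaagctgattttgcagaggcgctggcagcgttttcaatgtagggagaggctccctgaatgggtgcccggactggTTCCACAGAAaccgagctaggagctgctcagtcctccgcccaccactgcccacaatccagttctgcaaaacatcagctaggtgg
Clec7a: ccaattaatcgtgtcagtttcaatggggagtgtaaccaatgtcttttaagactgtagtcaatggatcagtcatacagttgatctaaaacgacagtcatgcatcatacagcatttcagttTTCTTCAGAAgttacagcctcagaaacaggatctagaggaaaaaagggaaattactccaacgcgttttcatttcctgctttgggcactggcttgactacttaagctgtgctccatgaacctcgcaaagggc
Pdcd1lg2: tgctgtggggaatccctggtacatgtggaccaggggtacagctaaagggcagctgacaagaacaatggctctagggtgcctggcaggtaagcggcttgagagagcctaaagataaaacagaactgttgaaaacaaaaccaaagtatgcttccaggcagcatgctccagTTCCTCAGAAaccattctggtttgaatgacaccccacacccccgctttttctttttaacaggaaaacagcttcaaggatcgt
The palindrome began 145 bases before the start in Retnla, 127 in Itgax, 84 in Hebp2, 131 in Clec7a and 82 in Pdcd1lg2. Among the 86 named genes that rose, 69 had a promoter in the table. The palindrome was found upstream in 7 of them, the others being Tbxas1 and Tfec. This search left out genes on the chromosome of Hbegf, which the count of 69 did not, so 7 is a lower bound. The share of all promoters with the palindrome in the 250 bases before the start was not counted. Over all called genes this motif, which is the same on both strands, was present in the 300-base window (250 before to 50 after the start) of 30 of 420 higher genes, or 7.14% (exact 95% interval 4.87 to 10%). It was present in 22 of 467 lower genes, or 4.71% (2.98 to 7.05%), and in 725 of 12503 promoters of all genes kept, or 5.8%. The motif with any 3 bases between the same arms was in 6.19% of the higher and 6.21% of the lower genes against 7.53% of all (interval for the higher genes 4.08 to 8.94%). At both spacings the interval for the higher genes included the share over all promoters, and intervals cover counting error only.

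Of the 20546 genes, 550 rose and 636 fell under IL-4 (limma, Benjamini-Hochberg adjusted p under 0.05). These are 2.68% and 3.1% of the genes tested, 5.77% in all, and the counts of called list members below are to be read against these shares. Among genes well above background on at least 1 array of each group, 205 rose and 140 fell by at least 2-fold, 57 and 18 by at least 4-fold, and 9 and 0 by at least 16-fold. A further 10 rises and 2 falls had no such array in their dimmer group. Of the genes tested, 463 passed the filter on dim probes only through the control IL-4 arrays, 10 of them among the rises, and 16 only through the control vehicle arrays, 1 of them among the falls. The median log2 change was 0.80 among the higher genes, -0.66 among the lower and -0.0019 over all genes. Levels are given as log2 of the processed signal minus the array's 75th percentile, so that a level of 0 equals that percentile, and they are not compared between genes. The 4 vehicle and 3 IL-4 arrays did not overlap for 1185 of the 1186 called genes, where 16.7% of all genes did not overlap (8.28% with all IL-4 arrays above and 8.44% with all below). Non-overlap is thus nearly given once a gene is called. Where it is stated for called genes below, it adds no separate evidence. The share called grew with brightness, from 1.32% in the dimmest of 4 equal groups of genes to 11.6% in the brightest. Vehicle array 4 had the smallest share of spots well above background, 56.17% against 70.13% to 83.19% on the other vehicle arrays. Without it 458 genes rose and 456 fell, and without IL-4 array 12 the numbers were 362 and 414.

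**Figure D1:**
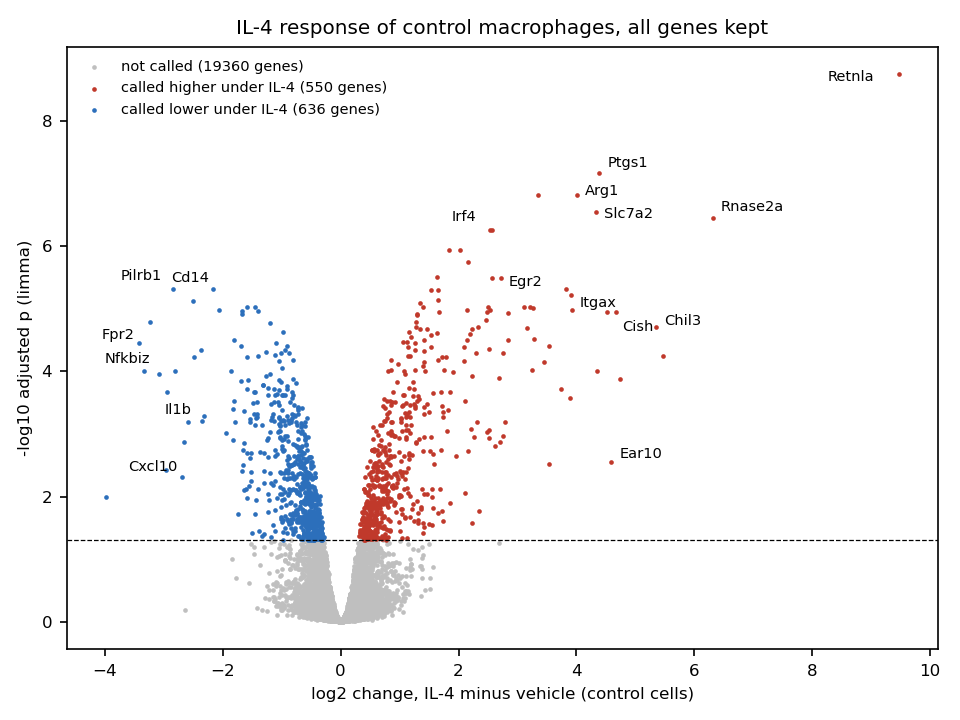
Log2 change under IL-4 in control cells (x axis) against -log10 of limma's adjusted p (y axis), 1 point per gene. The 550 higher genes reach a log2 change of 9.47 for Retnla, and the 636 lower genes reach values between -3 and -4; the dashed line marks the 0.05 threshold.

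The receptor and its kinases gave a mixed response with small changes. Of 16 measured genes of the IL-4 receptor and STAT6 pathway, 1 rose and 4 fell, with a median log2 change of -0.03. The share called was 31.2%, where 5.77% of all genes were called. Jak2, a Janus kinase, was at -1.28, -1.12, -1.28 and -1.18 on vehicle arrays 1 to 4 and at -0.47, -0.29 and -0.19 on IL-4 arrays 9, 10 and 12, and rose 1.86-fold (log2 change 0.90, SE 0.10, adjusted p = 0.000213). Il13ra1, the partner chain of the type II receptor, fell from -0.01, 0.09, -0.06 and 0.08 to -0.71, -0.57 and -0.63 (log2 change -0.66, SE 0.12, adjusted p = 0.0061). For both genes every IL-4 array lay on 1 side of every vehicle array. Ptpn6, the phosphatase SHP-1 that dampens cytokine signalling, fell by 1.02 on the log2 scale (adjusted p = 0.00112), and Pik3cg, a phosphoinositide 3-kinase catalytic subunit, fell by 1.0 (adjusted p = 0.00175). All but the fifth call, on the regulatory subunit Pik3r1 (-0.48, adjusted p = 0.0274, lost in 13 of 26 alternatives with adjusted p up to 0.109), held in every processing alternative in which the gene was tested, which is what is meant by every alternative in the rest of the text. The receptor chains Il4ra (log2 change -0.29, SE 0.17) and Il2rg (0.04, SE 0.11) and Stat6 itself (-0.05, SE 0.11) did not pass the test. Stat6 read 3.78, 3.70, 3.89 and 3.91 on the vehicle arrays and 3.87, 3.63 and 3.81 on the IL-4 arrays, which overlap.

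The SOCS family of feedback inhibitors, which STAT factors induce and which block cytokine receptors and their kinases, moved in both directions. Among its 8 measured members 2 rose and 1 fell, or 37.5% called, where 5.77% of all genes were. Cish was not well above background on any vehicle array, with readings of -4.26, -5.77, -5.87 and -4.89, and rose to -0.12, -0.75 and -0.71, at least 11-fold (measured means -5.20 and -0.53, adjusted p = 1.14e-05). Socs1 rose from -2.20, -2.25, -2.33 and -2.73 to 0.20, 0.19 and 0.08, 5.78-fold with 3 of 4 vehicle arrays above background (SE 0.18 log2, adjusted p = 1.06e-05). Socs3, the inhibitor associated with the IL-6 family, fell from -1.74, -1.67, -2.07 and -2.41 to -3.36, -3.38 and -3.72, a log2 change of -1.52 (SE 0.26, adjusted p = 0.00402). None of these 3 called genes overlapped between groups, which was so for 1185 of the 1186 called genes. Socs2 (0.18), Socs4 (0.01), Socs5 (-0.01), Socs6 (0.41) and Socs7 (-0.12) did not pass the test.

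The secreted proteins that mark alternative activation included the gene with the largest measured log2 difference. Retnla, a resistin-like protein also called RELM-alpha or FIZZ1, read -4.33, -4.36, -5.32 and -4.99 on the vehicle arrays, where only 1 of the 4 was well above background, and 4.95, 4.47 and 4.74 on the IL-4 arrays. The log2 change was 9.47 (SE 0.23, adjusted p = 1.8e-09), and because 3 vehicle arrays were not well above background no fold is given. Chil3, the chitinase-like protein Ym1, read 1.13, -0.18, 0.09 and 0.16 and then 6.13, 5.04 and 5.79, a 40.9-fold rise (SE 0.42 log2, adjusted p = 1.94e-05). Chil4, the related Ym2, rose 4.49-fold (adjusted p = 0.00184). Of the 6 measured members of the list, 3 rose and 0 fell, with a median log2 change of 1.33. The others were Chit1 (-0.27), Retnlb (-0.28) and Retnlg (0.48), none past the test.

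The eosinophil-associated ribonucleases, secreted RNases first described in eosinophil granules, had the highest median of any list, 4.24, or 3.93 with Ear3 at its lower bound. Of its 8 measured members 5 rose and 0 fell, or 62.5% called, where 5.77% of all genes were. Rnase2a read -1.87, -1.76, -1.60 and -2.56 under vehicle and 4.51, 3.91 and 4.66 under IL-4, 79.3-fold (SE 0.29 log2, adjusted p = 3.52e-07). Ear1 rose by 4.74 on the log2 scale (adjusted p = 0.000135) and Ear6 by 3.89 (adjusted p = 0.000263). Ear3, not well above background on any vehicle array, rose at least 15.6-fold, from a measured mean of -5.64 to -0.17 (adjusted p = 5.76e-05). This p rests on vehicle readings that were not well above background, as do those of Cish above and Il1rl2 below. Ear10 rose by 4.59 (SE 0.74, adjusted p = 0.00279), with 1 of 4 vehicle arrays above background. Of the others, 3 vehicle arrays were above background for Ear1 and 2 for Ear6. The family consists of closely related copies: on mm9 the probes of Ear3 and Ear10 share 34 bases of chromosome 14, so their values are not separate evidence, and cross-hybridisation within the family was not tested. Of 9 markers of eosinophils, basophils and mast cells on the array, 5 passed the filter and were tested, and limma called 0 of these, with 1 at an unadjusted p under 0.05. The summed level of the 9 was 37.2 to 42.9 under vehicle and 26.4 to 35.1 under IL-4 (on a linear scale, with 1 being the 75th percentile). Most of that sum came from a single marker, Ccr3. Its log2 level was 5.19, 5.39, 5.23 and 5.30 under vehicle and 4.67, 5.10 and 4.79 under IL-4 (log2 change -0.42, adjusted p = 0.0524 in limma).

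In arginine and polyamine metabolism 2 of 18 measured genes rose and 0 fell, or 11.1% called, where 5.77% of all genes were. Arg1, which splits arginine into ornithine and urea, read -3.01, -3.01, -2.73 and -2.51 under vehicle and 1.33, 1.35 and 0.88 under IL-4, a 16.1-fold rise (SE 0.16 log2, adjusted p = 1.53e-07). Slc7a2, the cationic amino acid transporter that carries arginine into macrophages, read -3.02, -2.34, -2.89 and -2.11, then 1.62, 1.78 and 1.83 under IL-4, 20.1-fold higher (SE 0.19 log2, adjusted p = 2.8e-07). Neither overlapped between groups. The mitochondrial isoform Arg2 (log2 change 0.31), the transporter Slc7a1 (0.15), the citrulline-recycling enzyme Ass1 (0.54) and the polyamine oxidase Smox (-0.57) did not pass the test, and the list median was 0.07. Gatm, which uses arginine to start creatine synthesis and stood outside the list, rose 3.57-fold, from 3.15, 3.36, 3.16 and 3.34 to 5.18, 5.17 and 4.92 (adjusted p = 1.13e-06).

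**Figure D2:**
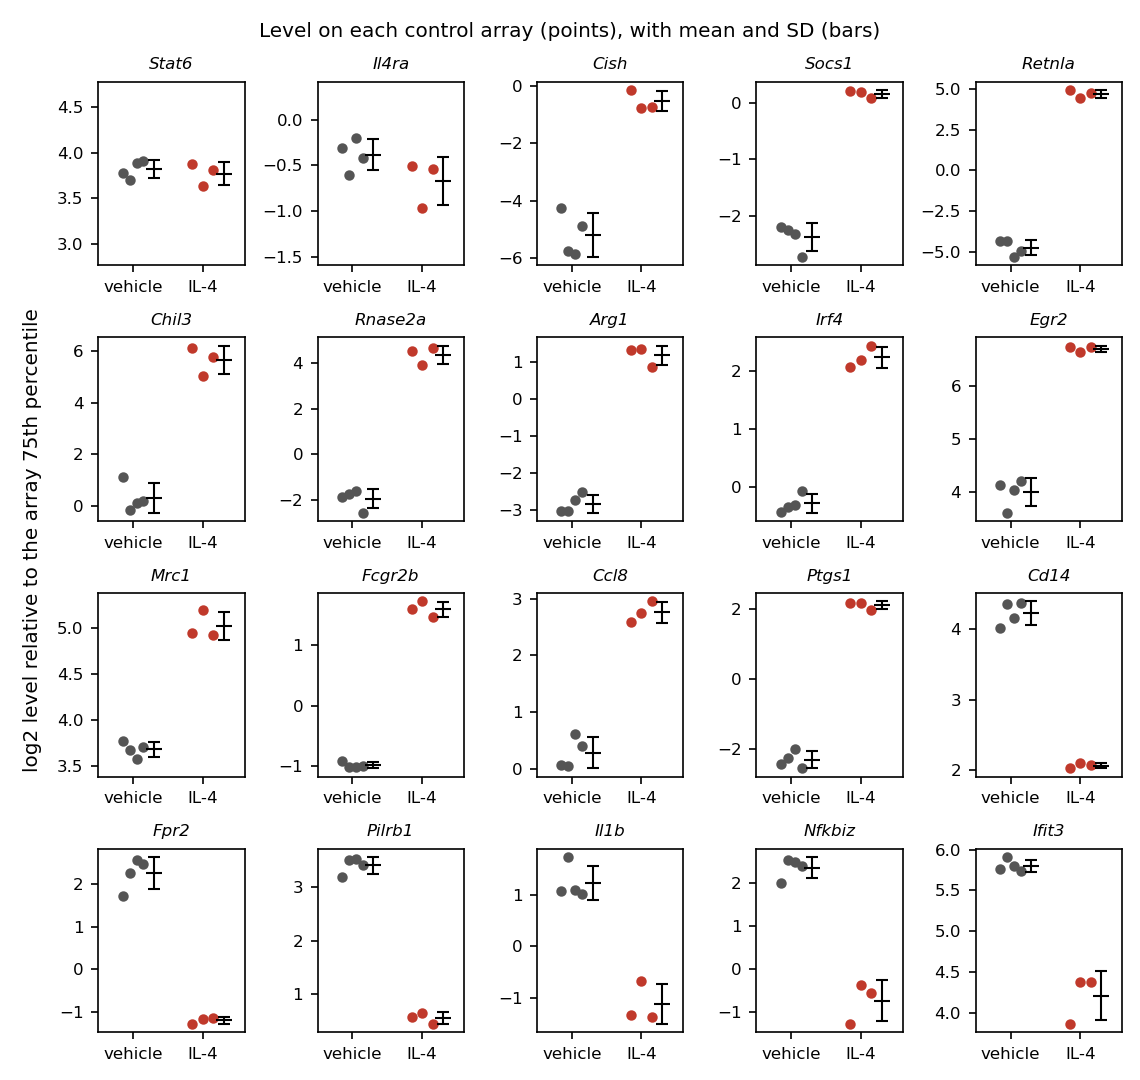
Log2 level on each of the 4 vehicle (grey) and 3 IL-4 (red) control arrays for 20 genes, 1 panel per gene with its own y axis; bars give mean and SD. The groups overlap for Stat6 and Il4ra and are apart for the other 18 panels, all of which show called genes.

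Among transcription factors of macrophage activation 10 of 37 rose and 3 fell, with a median log2 change of 0.17. Irf4, which IL-4 signalling through STAT6 is known to induce, read -0.43, -0.35, -0.31 and -0.06 under vehicle and 2.08, 2.20 and 2.44 under IL-4, 5.76-fold higher (SE 0.12 log2, adjusted p = 5.43e-07). Egr2, a zinc finger factor, read 4.14, 3.61, 4.04 and 4.21, then 6.76, 6.65 and 6.74 under IL-4, 6.57-fold higher (SE 0.16 log2, adjusted p = 3.22e-06). For each of these genes the lowest IL-4 array was above the highest vehicle array. Bhlhe40, a basic helix-loop-helix repressor, rose by 3.54 on the log2 scale (adjusted p = 3.93e-05) and the AP-1 family member Batf3 by 2.11 (adjusted p = 0.000301). Smaller log2 rises were seen for Fosl2 (1.40), Klf4 (1.26), the lipid-sensing nuclear receptor Pparg (1.03) and Tfec, a factor of the MITF family (0.76). Nfil3, a leucine zipper factor outside the list, rose by 3.34 (adjusted p = 1.53e-07). The member that fell in every alternative was Cebpd, a C/EBP factor of the acute-phase response (log2 change -1.25, adjusted p = 0.00124). Of all these calls, 8 higher and 1 lower held in every alternative. The interferon factor Irf7 had a log2 change of -0.89 (SE 0.28, adjusted p = 0.116) and did not pass.

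The lectin and scavenger receptors split, with 5 of 29 measured members higher and 9 lower. By log2 change, those that rose were led by the C-type lectins of the galactose-binding kind. Mgl2 rose by 3.27 on the log2 scale (SE 0.23, adjusted p = 9.8e-06), from -1.96, -2.64, -2.97 and -2.43 to 0.71, 0.88 and 0.71, and the neighbouring Clec10a by 2.51 (adjusted p = 9.33e-06). Mrc1, the mannose receptor CD206, read 3.77, 3.67, 3.57 and 3.71, then 4.94, 5.19 and 4.93 under IL-4, 2.54-fold higher (SE 0.09 log2, adjusted p = 8.09e-06). Clec7a, or Dectin-1, rose by 2.02 (adjusted p = 1.13e-06) and Clec5a by 0.95 (adjusted p = 0.00603). Among those that fell were the mycobacterial glycolipid receptor Clec4e, or Mincle (-1.67, adjusted p = 0.00391), Clec4n, or Dectin-2 (-0.89), Clec12a (-0.93), the scavenger receptor Marco (-0.89) and the apoptotic-cell receptor Mertk (-0.90). Of the calls in this list, 5 higher and 6 lower held in every alternative. The hemoglobin receptor Cd163 (0.03), Msr1 (0.08) and Cd36 (0.46, adjusted p = 0.0968) did not pass the test.

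Receptors for antibody and the paired activating and inhibitory receptors also moved both ways, 3 of 25 higher and 7 lower. Fcgr2b, the inhibitory IgG receptor, read -0.91, -1.02, -1.02 and -0.99 under vehicle and 1.59, 1.72 and 1.47 under IL-4, 5.96-fold higher (SE 0.15 log2, adjusted p = 3.22e-06). The activating receptor Fcgr3 rose by 0.62 (adjusted p = 0.00359), and the high-affinity receptor Fcgr1 fell by 0.81 (adjusted p = 0.00765). Fcgr4 (-0.13) and the shared signalling chain Fcer1g (-0.21) did not pass. Pilrb1, an activating paired immunoglobulin-like receptor, fell from 3.19, 3.51, 3.53 and 3.41 to 0.58, 0.66 and 0.44, 7.21-fold lower (SE 0.18 log2, adjusted p = 4.78e-06). Its inhibitory partner Pilra fell by 2.50 on the log2 scale and its copy Pilrb2 by 3.23, with 1 of 3 IL-4 arrays above background for Pilrb2. The activating receptor Cd300e fell by 2.97 (SE 0.50, adjusted p = 0.00373), whereas its relative Cd300ld rose by 0.82 (adjusted p = 0.00298). Fcrl1, an Fc receptor-like protein known from B cells, fell from 0.10, 0.44, 0.33 and 0.53 to -2.73, -2.23 and -1.78 (adjusted p = 0.00064). Of 6 B cell markers on the array 4 were tested, and limma called 0, with 0 at an unadjusted p under 0.05. The summed level of the 6 was 17.8 to 20.8 under vehicle and 18.7 to 23.6 under IL-4.

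Chemokines associated with type 2 inflammation rose in 2 of 4 measured cases. Ccl8, a monocyte and eosinophil attractant, read 0.06, 0.05, 0.61 and 0.40 under vehicle and 2.58, 2.74 and 2.95 under IL-4, 5.57-fold higher (SE 0.18 log2, adjusted p = 1.13e-05). Ccl24, or eotaxin-2, rose by 1.70 on the log2 scale (adjusted p = 0.00179). Ccl17, a T helper cell attractant, had a log2 change of 0.37 (SE 0.34) and Ccl11 of -0.70 (SE 0.36), neither past the test. Ccl7, of the same gene cluster as Ccl8, rose by 2.46 (adjusted p = 1.53e-05).

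Among inflammatory cytokines and chemokines 8 of 20 measured members fell and 3 rose, with a median log2 change of -0.38. Those that rose were Ccl7, described above, Ccl9 (log2 change 0.515, adjusted p = 0.00494) and Ccl12, whose call did not hold in every alternative. Il1b read 1.09, 1.73, 1.1 and 1.02 under vehicle and -1.32, -0.67 and -1.36 under IL-4, 5.12-fold lower (SE 0.30 log2, adjusted p = 0.000612). Cxcl10, an interferon-induced T cell attractant, read 1.63, 1.24, 0.81 and 0.65, then -2.97, -0.99 and -0.85 under IL-4, with a wide spread (log2 change -2.69, SE 0.47, adjusted p = 0.00494). Both groups were apart for both genes. Ccl3 fell by 1.68 (adjusted p = 1.2e-05), Ccl4 by 1.41 (adjusted p = 1.1e-05), the neutrophil attractant Cxcl2 by 0.90 (adjusted p = 0.00425) and Cxcl16 by 0.65 (adjusted p = 0.00739). In this list 2 higher and 6 lower calls held in every alternative. The monocyte attractant Ccl2 had a log2 change of 0.79 (SE 0.22, adjusted p = 0.0576). In the wider interleukin-1 family 1 of 11 rose and 2 fell. The member that rose was Il1rl2, the interleukin-36 receptor, which was not well above background on any vehicle array and rose at least 4.41-fold (measured means -5.21 and -1.93, adjusted p = 3e-05).

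Of 32 genes of the Toll-like receptor and NF-kappa-B pathway, 1 rose and 7 fell, of which 0 and 5 held in every alternative. Cd14, the co-receptor for bacterial lipopolysaccharide, read 4.02, 4.36, 4.17 and 4.37 under vehicle and 2.02, 2.09 and 2.06 under IL-4, 4.51-fold lower (SE 0.14 log2, adjusted p = 4.78e-06). Tlr2, the receptor for bacterial lipoproteins, fell by 1.43 on the log2 scale (adjusted p = 0.000483) and Cd180 by 0.74 (adjusted p = 0.00621). Nfkbiz, a nuclear cofactor for inducible inflammatory genes, read 2.0, 2.54, 2.49 and 2.41, then -1.27, -0.38 and -0.54 under IL-4, 8.51-fold lower (SE 0.31 log2, adjusted p = 0.000108), and the inhibitory kinase Irak3 fell by 0.87 (adjusted p = 5.17e-05). For Cd14 and Nfkbiz all IL-4 arrays were below all vehicle arrays. The lipopolysaccharide receptor Tlr4 (log2 change -0.18, SE 0.08, adjusted p = 0.33), the subunit Rela (-0.31, adjusted p = 0.392) and the inhibitor Nfkbia (-0.32, adjusted p = 0.217) did not pass the test.

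Interferon-stimulated genes, the antiviral genes switched on by type I interferon, fell in 14 of 41 cases and rose in 0, with a median log2 change of -0.40, the lowest of the 31 lists. Of the 14 lower calls, 4 held in every alternative tried. Ifit3, an antiviral RNA-binding protein, read 5.77, 5.91, 5.80 and 5.74 under vehicle and 3.87, 4.38 and 4.38 under IL-4, 3.01-fold lower (SE 0.15 log2, adjusted p = 5.99e-05). Ifit2 fell by 1.41 on the log2 scale (adjusted p = 0.00765), the exonuclease gene Isg20 by 1.66 (adjusted p = 0.00179) and Xaf1 by 0.65 (adjusted p = 0.00514). Ifit3b, a copy of Ifit3 outside the list, fell by 2.32 (adjusted p = 0.000524). Of the transcription factors that drive these genes, Stat2 (-0.37) and Irf9 (-0.25) did not pass the test.

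Chemoattractant receptors fell in 6 of 16 measured cases and rose in 1, with a median of -0.36. Fpr2, a receptor for formylated bacterial peptides and other ligands, read 1.71, 2.25, 2.56 and 2.45 under vehicle and -1.27, -1.15 and -1.14 under IL-4, 10.7-fold lower (SE 0.30 log2, adjusted p = 3.57e-05). Its neighbour Fpr1 fell by 2.95 on the log2 scale (SE 0.33, adjusted p = 0.000217), and the sphingosine phosphate receptor S1pr1 fell by 1.04 (adjusted p = 0.000196). Neither formyl peptide receptor overlapped between groups. Of the calls in the list, 0 higher and 3 lower held in every alternative. Ccr2, the monocyte receptor for Ccl2, had a log2 change of -0.65 (SE 0.18, adjusted p = 0.0676).

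In antigen presentation by MHC class II, 2 of 11 measured genes rose and 0 fell, with a median of 0.62. That is 18.2% called, where 5.77% of all genes were. H2-DMa, which helps load peptides, rose by 0.71 (SE 0.13, adjusted p = 0.00823). The invariant chain Cd74 read 5.06, 4.03, 5.25 and 4.87 under vehicle and 6.12, 5.45 and 5.89 under IL-4 (log2 change 1.02, SE 0.27, adjusted p = 0.0516), just outside the threshold. The class II chains H2-Aa (0.62), H2-Ab1 (0.70) and H2-Eb1 (0.71) did not pass either. H2-DMa held its call in every alternative, and the second higher call, on the thiol reductase Ifi30 (1.0, adjusted p = 0.0351), was lost in 13 of 26, with adjusted p up to 0.159. Among costimulatory and checkpoint ligands 2 of 13 rose and 2 fell. Both PD-1 ligands rose, Cd274, or PD-L1, by 1.1 (adjusted p = 0.000108) and Pdcd1lg2, or PD-L2, by 0.66 (adjusted p = 0.00392). Icosl, the ligand of the T cell costimulator ICOS, read 2.68, 2.91, 2.99 and 2.82 under vehicle and 0.44, 0.64 and 0.37 under IL-4, 5.15-fold lower (SE 0.21 log2, adjusted p = 4.61e-05). Cd80 (0.62), Cd86 (-0.36) and Cd40 (0.17) did not pass the test.

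Genes of cell fusion and junctions rose in 6 of 23 cases and fell in 1. Cldn11, a tight junction claudin, read -1.99, -2.86, -2.20 and -2.80 under vehicle and 1.99, 2.54 and 1.63 under IL-4, 22.8-fold higher (SE 0.33 log2, adjusted p = 1.13e-05). Itgax, the integrin CD11c of dendritic cells and some tissue macrophages, read 1.05, 0.76, 1.24 and 1.52, then 5.12, 4.86 and 5.15 under IL-4, 15-fold higher (SE 0.25 log2, adjusted p = 5.93e-06). Of 8 dendritic cell markers on the array 4 were tested, and limma called 0, with 1 at an unadjusted p under 0.05. Of the 8, 3 were above background on no control array, and their summed level was 1.54 to 2.09 under vehicle and 1.16 to 1.79 under IL-4. Ocstamp, a membrane protein needed for osteoclast and giant cell fusion, rose by 2.79 (SE 0.36, adjusted p = 0.000647) with 1 of 4 vehicle arrays above background, and the proton pump subunit Atp6v0d2 by 1.71 (adjusted p = 0.000211). In this list 4 higher and 0 lower calls held in every alternative. The catenin Ctnna1 (0.06) and Trem2 (0.14) did not pass.

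Eicosanoid synthesis changed at individual enzymes, 4 of 17 higher and 4 lower. Ptgs1, the constitutive cyclooxygenase COX-1, read -2.41, -2.24, -1.99 and -2.54 under vehicle and 2.15, 2.16 and 1.96 under IL-4, 20.9-fold higher (SE 0.16 log2, adjusted p = 6.78e-08). The thromboxane synthase Tbxas1 rose by 0.78 (adjusted p = 0.00221) and the lysosomal phospholipase Pla2g15 by 0.95 (adjusted p = 0.00015). Hpgds, which makes prostaglandin D, fell by 1.13 (adjusted p = 0.000188). The inducible cyclooxygenase Ptgs2 (0.53, SE 0.17) did not pass, and 3 higher and 1 lower calls of the list held in every alternative. Of 32 matrix, repair and growth factor genes 4 rose and 2 fell, or 18.8% called, where 5.77% of all genes were. F10, coagulation factor X, read -3.21, -3.79, -3.05 and -2.67 under vehicle and 0.41, -0.19 and 0.59 under IL-4, 10.9-fold higher (SE 0.33 log2, adjusted p = 7.17e-05). Igf1, a growth factor of tissue repair, rose by 0.86 (adjusted p = 0.000345). F10 and Igf1 were the members whose calls held in every alternative, and Fn1 (-0.14) and Mmp12 (0.26) did not pass.

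The metabolic lists differed in their share of calls, from 0% in oxidative phosphorylation to 20% among LXR targets, where 5.77% of all genes were called. No gene of the 37 measured in oxidative phosphorylation and the tricarboxylic acid cycle was called by limma. An unadjusted p under 0.05 was found for 10 of them, but the share of all genes at that p was not counted. The median of 0.18 was above the -0.0019 of all genes. Fatty acid uptake and oxidation had 3 of 27 genes higher and 0 lower, with a median of 0.17. The fatty acid carrier Fabp4 rose by 1.09 (adjusted p = 0.00522) and the mitochondrial trifunctional protein subunit Hadhb by 0.59 (adjusted p = 0.00478), whereas Cpt1a, the carnitine transferase that admits fatty acids to mitochondria, had a log2 change of 0.07 (SE 0.15). In glycolysis 2 of 26 rose and 1 fell, the call that held in every alternative being the glucose transporter Slc2a1 (0.66, adjusted p = 0.0122). In sterol and fatty acid synthesis 2 of 27 rose, and neither call held in every alternative: Hmgcs1 turned from 0.40 to -0.04 when its probes were averaged. Of 15 LXR target genes 1 rose and 2 fell, with no call that held in every alternative.

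Lysosomal genes rose in 4 of 34 cases and fell in 1, so that 14.7% were called, where 5.77% of all genes were. Besides Atp6v0d2, the cysteine protease Ctsz rose by 0.70 (adjusted p = 0.00747), and Ctsc, the protease that activates granule serine proteases, read 1.1, 1.34, 1.41 and 1.32 under vehicle and 0.15, 0.24 and -0.06 under IL-4, 2.27-fold lower (adjusted p = 0.000333). Of 19 iron and antioxidant genes 2 rose and 2 fell, or 21.1% called. The transferrin receptor Tfrc was the call that held in every alternative (1.07, adjusted p = 3.4e-05). In the unfolded protein response 6 of 24 rose and 2 fell. The disulfide isomerases Pdia4 (0.77, adjusted p = 0.00505) and Pdia6 (0.74, adjusted p = 0.00704) kept their calls, as 2 of the higher and 0 of the lower calls did in every alternative. Cell cycle genes had 0 higher and 2 lower calls among 35, or 5.71%, which is near the 5.77% of all genes. Neither of these calls held in every alternative, and the proliferation marker Mki67 had a log2 change of -0.01 (SE 0.11). No complement gene of 14 was called by limma, with 2 at an unadjusted p under 0.05. Of 14 purine receptor and ectonucleotidase genes 3 rose and 0 fell, or 21.4% called. The ADP receptor P2ry1 was the call that held in every alternative (2.57, SE 0.12, adjusted p = 5.43e-07).

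**Figure D3:**
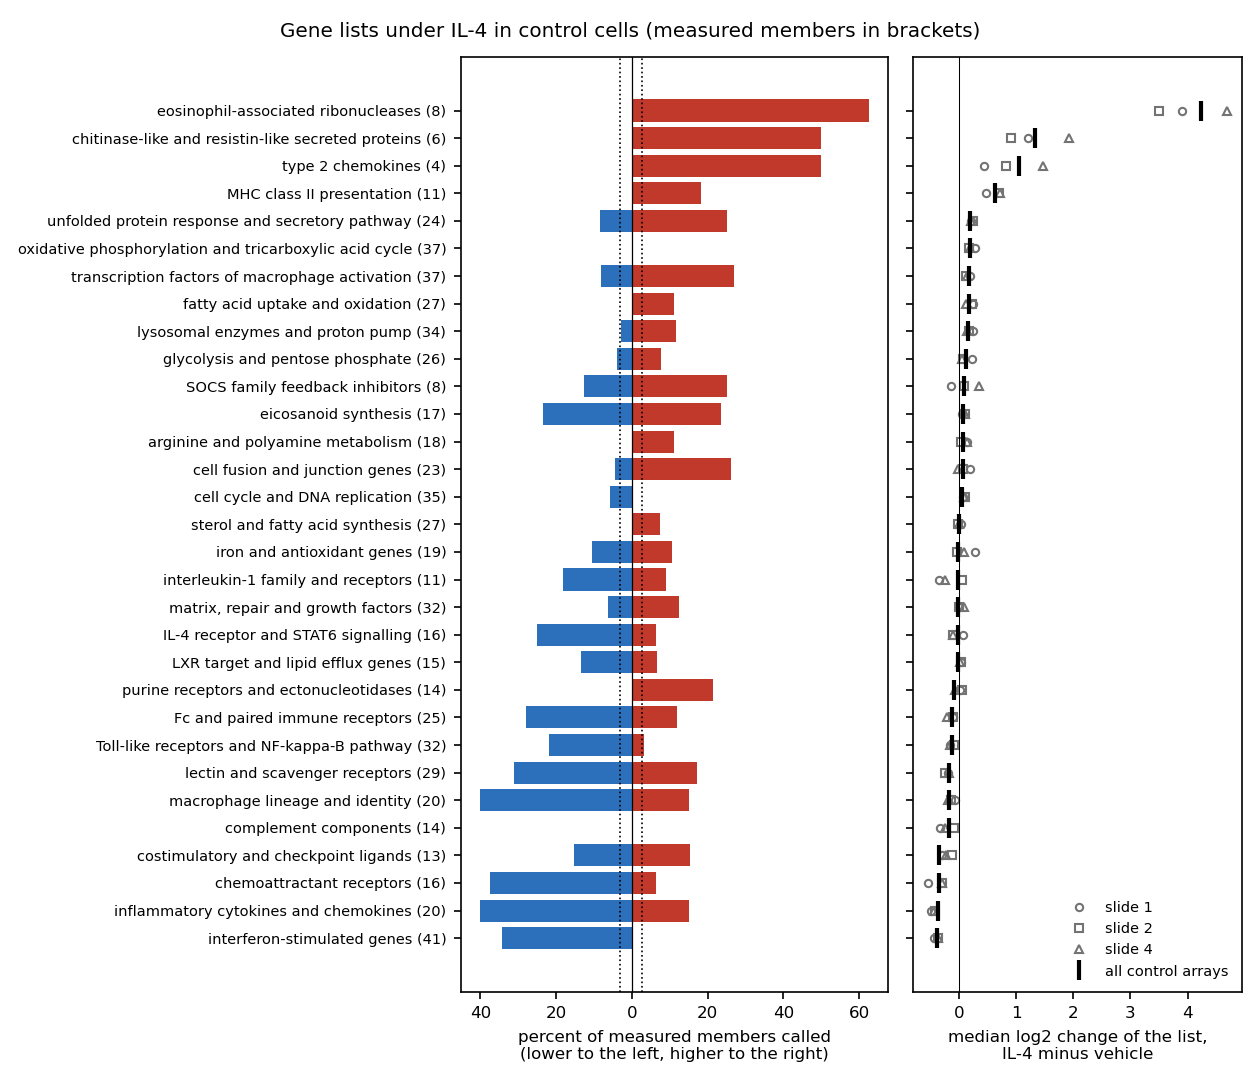
Left, the percent of each list's measured members called higher (red, to the right) or lower (blue, to the left), with dotted lines at the 2.68% and 3.1% of all genes. Right, the list's median log2 change over all control arrays (black bar) and within slides 1, 2 and 4 (grey), which run from 4.24 for the eosinophil-associated ribonucleases to -0.40 for interferon-stimulated genes.

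The identity of the cells as macrophages was checked on 10 markers, all well above background on every vehicle array. Their summed level was 632 to 683 under vehicle and 546 to 570 under IL-4, so the groups did not overlap, and whether this enters the changes above was not tested. In these bulk samples fewer cells of a type and less RNA per cell cannot be told apart. In the broader list of lineage genes 3 of 20 rose and 8 fell. The cytokine receptor chain Csf2rb rose by 1.18 (adjusted p = 0.000345), while the lineage factor Maf fell by 0.81 (adjusted p = 0.00144) and the lysozyme gene Lyz1 by 0.73 (adjusted p = 0.000721). In that list 2 higher and 6 lower calls held in every alternative. The receptor of macrophage colony-stimulating factor Csf1r (0.21), Adgre1, or F4/80 (-0.28), and Itgam, or CD11b (-0.05), did not pass the test. T cell markers summed to 0.689 to 0.958 under vehicle and 0.704 to 0.852 under IL-4, and neutrophil markers to 5 to 10.4 and 5.16 to 12. Of the 7 and 8 on the array, 3 T cell and 6 neutrophil markers were tested, and limma called 0 of them, with 0 at an unadjusted p under 0.05.

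Further large changes fell outside the lists. Flt1, a receptor for vascular endothelial growth factor, read -1.0, -0.84, -0.71 and -0.96 under vehicle and 2.83, 2.99 and 2.99 under IL-4, 14.1-fold higher (SE 0.24 log2, adjusted p = 4.78e-06), although 1 of its 4 other probes differed in the opposite direction. Of 5 endothelial markers, all tested, 1 fell and 0 rose, and they summed to 1.12 to 1.47 under vehicle and 0.978 to 1.02 under IL-4. Mcf2l, a guanine nucleotide exchange factor, rose by 3.93 (adjusted p = 1.04e-05), Hebp2 by 3.73 (adjusted p = 0.000188) with 2 of 4 vehicle arrays above background, and Snn by 3.54 (adjusted p = 0.00301) with 1 of 4. Ppp1r3c, a glycogen-targeting subunit of protein phosphatase 1, was not well above background on any vehicle array and rose at least 4.85-fold (measured means -6.21 and -1.85). In the same way Cst7, a cystatin, rose at least 5.52-fold (means -4.74 and -1.53), Cdr2l at least 3.18-fold (means -5.21 and -2.46) and the lipase Lipn at least 2.08-fold (means -5.30 and -3.08). These 4 genes passed the filter on dim probes only through the control IL-4 arrays, where they are high, so no p is given for them. Slc13a3, a sodium-coupled dicarboxylate transporter, read 0.30, 0.33, 0.71 and 0.65 under vehicle and -3.01, -2.82 and -2.68 under IL-4, 10.1-fold lower (SE 0.33 log2, adjusted p = 0.0001). Adgre4, an adhesion receptor related to F4/80, fell by 2.66 (adjusted p = 0.00135), Limd2 by 1.82 (adjusted p = 0.000301), and the carboxypeptidase Cpd by 1.59 (adjusted p = 9.33e-06). Sncaip fell by 2.06, Tmprss4 by 1.94 with 1 of 3 IL-4 arrays above background, Nanos1 by 1.83, Xylt2 by 1.81 and Stk17b by 1.45.

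**Figure D4:**
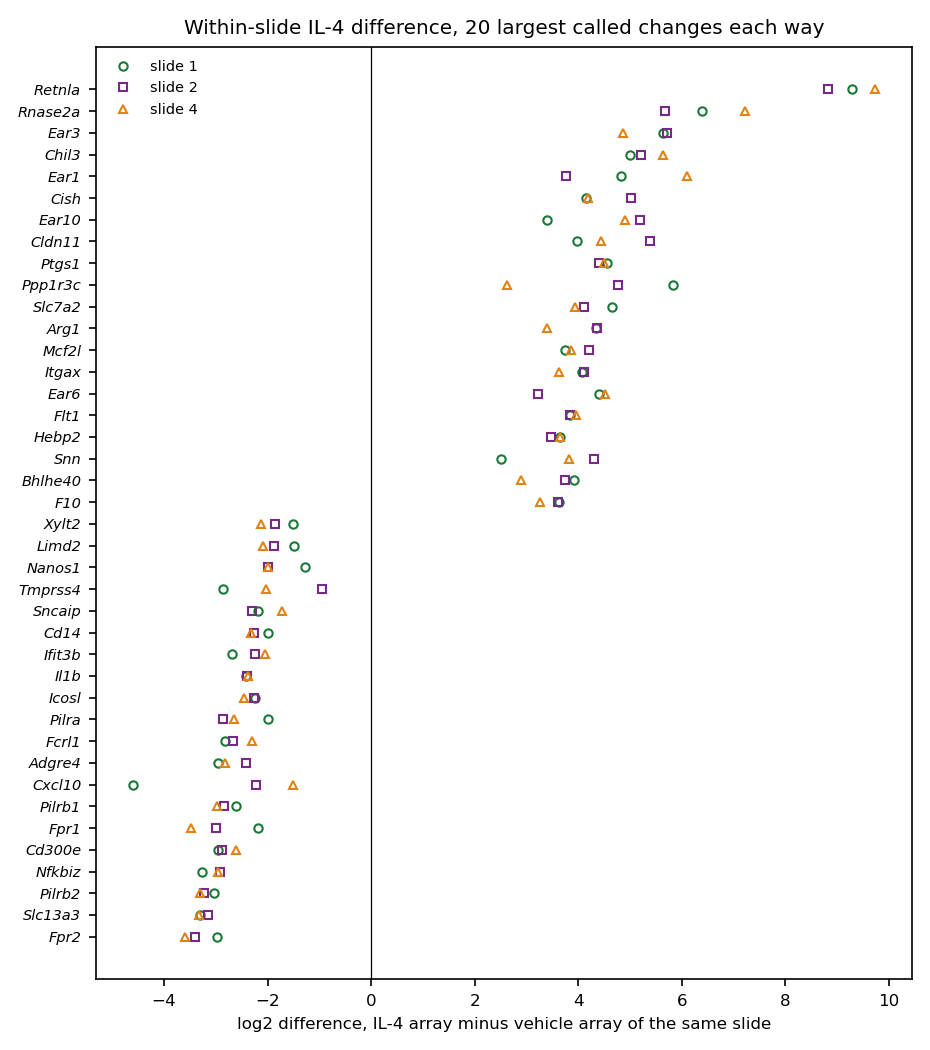
Difference between the IL-4 and the vehicle array of the same slide (x axis, log2) for the 20 largest called rises and falls with non-overlapping groups, 1 symbol per slide. Genes with placeholder names are left out. The choice of genes fixes the side of 0, and the plot shows the spread between slides, which is wide for Cxcl10 and Ppp1r3c.

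The same contrast in HDAC3 KO cells gave 231 higher genes (1.12%) and 229 lower genes (1.11%), from 3 arrays a group. Hdac3 itself read -1.75, -2.18, -2.05 and -2.21 on control vehicle arrays and -1.95, -2.34 and -1.85 on control IL-4 arrays, against -3.71, -3.16 and -3.51 on KO vehicle and -3.21, -3.41 and -4.09 on KO IL-4 arrays, all below the control arrays. Whether the probe lies in the deleted exons was not examined. The difference of the IL-4 response between genotypes passed the test for 1 gene of 20546 (0.00487%), Ptgs1. An unadjusted p under 0.05 was reached by 807 genes, a smaller share than the 0.05 that chance alone would give. Ptgs1 read 1.18, 1.01 and 1.14 on the KO vehicle arrays and 2.30, 2.86 and 2.73 on the KO IL-4 arrays, a rise of 1.52 on the log2 scale, so its vehicle level was higher in KO than in control cells and its response smaller by 2.87 (SE 0.23, adjusted p = 0.001). Cldn11 rose by 4.51 in control and 1.74 in KO cells (adjusted p of the difference 0.277), and Egr2 by 2.72 and 0.91 (adjusted p 0.087). For Retnla the log2 changes were 9.47 and 10.91, for Chil3 5.35 and 6.81, and for Arg1 4.01 and 5.08, with no adjusted p of the difference past the threshold.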

How the data were processed

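RNA from 13 macrophage samples was hybridised to 1-colour Agilent mouse arrays, and the authors deposited the scanner output of each array as processed signal intensity, background-corrected by Feature Extraction 10.5.1.1 per the file headers. The submitters' processing notes name Feature Extraction 9.53 and limma (version not given). The authors also deposited a table of processed intensities for the same arrays, and the log2 of these values was used as an alternative. Here, log2 intensity was scaled by subtracting each array's 75th percentile over non-control probes. Spots of a probe were averaged, outlier spots and control probes were left out, and a probe was kept when well above background on all arrays of at least 1 group. Each gene was represented by its probe of highest mean level, chosen over all arrays, which left 20546 genes. Of the called genes 524 had other probes, 753 in all, of which 662 differed in the same direction as the probe used and the rest did not. Genes were named through RefSeq accessions where these matched. One linear model over the 4 groups was fitted by lmFit and eBayes of limma 3.58.1 under R 4.3.3 (9 residual degrees of freedom) with Benjamini-Hochberg adjustment over all genes, all groups sharing 1 estimate of the spread. The test was checked on simulated data. No saturated spot was found, 56.17% to 83.19% of spots on a control vehicle array were well above background, and the number of arrays limits the precision. Where no array of a group measured a gene, the bound is the bright group's mean over the mean, per array, of the higher of the lowest signal well above background and the probe's own signal.

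The members, the 31 gene lists and the 11 lists of markers were chosen with earlier results of these data known. Named genes were the 20 largest changes each way among non-overlapping called genes without a placeholder name, the 10 smallest adjusted p each way, up to 8 genes a list, the IL-4 receptor chains, Stat6, Hdac3 and Lyz2, up to 8 genes with a bound each way and any gene that differed between genotypes. Other list members in the text were chosen after their values were seen. The lists are described by counts and medians and were not tested as sets. Counts at an unadjusted p under 0.05, for gene and marker lists alike, have no share over all genes beside them, as that share was not counted. Alternatives covered scaling, background correction, the authors' values, the filter, the choice of probe, the variance model, the slide as a block, array weights and leaving out arrays. Promoters came from RefSeq on GRCm38.p6, and probe coordinates in the files are mm9.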

Additional observations from a re-analysis of the deposited data

Results flagged for a closer look

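The control vehicle group was the only group of 4 or more arrays, and the levels of 164 genes and 3 array measures were checked in it for an array far from the other 3, by Dixon's criterion, under which chance marks about 1 in 20 groups. Of the 167 measures 3 were marked. Il1b was at 1.73 on vehicle array 2, against 1.02 to 1.1 on the others. Vehicle array 1 was lowest for Cebpd, at 2.81 against 3.06 to 3.08, and for Stk17b, at 1.91 against 2.0 to 2.01. In each case the marked array stayed above every IL-4 array.

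The IL-4 response of Ptgs1, the cyclooxygenase COX-1, differed between genotypes: the log2 change in HDAC3 KO cells minus that in control cells was -2.87 (SE 0.23, adjusted p = 0.001 in limma). Its mean level was -2.30 in control vehicle, 1.11 in KO vehicle, 2.09 in control IL-4 and 2.63 in KO IL-4 cells.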

How the results depend on the processing

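The call counts, the list counts and medians and the named genes were recomputed under 26 alternatives, of which normexp with quantile normalization and trend with robust variance each changed 2 choices together. The marker sums and the counts in KO cells were not recomputed, and the genotype difference has no value with only the control arrays. Of the 550 higher genes 278, and of the 636 lower genes 236, were called in the same direction in every alternative that tested them. Of the 1186 called genes 1103 were tested when only probes above background on all arrays were kept. Array weights gave 1253 higher and 1369 lower genes, and median scaling, which brought the median of all genes from -0.002 to 0.044, gave 327 lower and 380 higher. Leaving out 1 array at a time gave 362 to 642 higher and 414 to 741 lower genes, the lowest without control IL-4 array 12. The number of genes whose response differed between genotypes, 1 as reported, was 2 with quantile normalization, with the authors' deposited values and with only probes above background on all arrays, 8 with normexp and quantile normalization together, 10 with trend and robust variance, and 4 with array weights. It ranged from 1 to 4 without single arrays, with 4 without KO vehicle array 7 and 2 without KO vehicle array 6. Of 164 named genes that were called, 113 kept their call in every alternative that tested them and 51 lost it at least once. Hmgcs1 reversed to -0.0426 (adjusted p = 0.971) with the mean over its probes. The share of promoters with the STAT6 palindrome is given for both spacings in the text. No paired analysis was possible because the groups share no replicate numbers in the labels. The arrays of a slide can still be compared with each other, and with the slide as a fixed block 432 genes rose and 475 fell. Depth is not defined for arrays, and genes near background, such as those given by a bound, have no measured vehicle level.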

Other observations

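Runs of neighbouring genes called in the same direction were counted after the values had been seen, on the gene order of RefSeq, and no test was made of their number. On chromosome 11 the chemokine genes Ccl3 and Ccl4 and the adjacent Wfdc17 and Wfdc18, which encode small secreted proteins with a whey acidic protein fold, all fell, by log2 changes of -1.68 to -0.50. On chromosome 19 Ifit2, Ifit3, Ifit1bl1 and Ifit3b, members of 1 family of interferon-induced genes, fell by -2.32 to -0.85. Also on chromosome 19, the PD-1 ligand genes Cd274 and Pdcd1lg2 and the next gene Ric1 rose by 0.51 to 1.1.

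On chromosome 13 the cytokine receptor genes Il6st, the gp130 chain of the IL-6 family, and Il31ra, a chain of the IL-31 receptor, rose together with the neighbouring Ddx4 and Slc38a9, by 0.60 to 2.75. Runs of Schlafen genes on chromosome 11 fell, Slfn5, Slfn9, Slfn8 and Slfn10-ps by -0.91 to -0.58, and Slfn1, Slfn4 and Slfn3 by -1.64 to -0.56. On chromosome 19 the membrane-spanning genes Ms4a4b, Ms4a6c and Ms4a6b fell by -1.0 to -0.91. Genes of a run can be near-identical copies, and how far their probes share signal was not tested.

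Among 17 genes of stress and RNA quality, 16 were tested and 43.8% of these were called, where 5.77% of all genes were. The 4 higher genes were Ier3, Hspa1a, Hsph1 and Gadd45b, and the 3 lower genes were Fos, Fosb and Malat1. The summed level of the 17 overlapped between groups, at 231 to 239 under vehicle and 222 to 246 under IL-4. The part of these genes in the changes described above was not tested.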
